A study of Homo sapiens with 172 samples.

Results

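The genes described here encode 10 transcription factors of blood stem cells and myeloid cells: MYB, GATA2, RUNX1, SPI1, LMO2, TAL1, CEBPA, ERG, ETV6 and FLI1. They were chosen by name, and each was placed by its hg19 interval, given to 10 kb, on the 100 kb bins it overlaps. Together they took up 20 of the 26414 bins with signal, and the 1 Mb on either side of each gene took up a further 199. DamID measured which DNA touched the nuclear lamina, cell by cell, in the human leukaemia line KBM7, whose genome is near-haploid. All labelled samples form 1 group: haploid (1N) KBM7 of clone 5-5 with a Dam-LaminB1 fusion that Shield1 (0.5 nM, 15 h) stabilised, sorted on both Fucci cell cycle markers, from which the smallest 2% were taken. The labels name 1 clone, without separate cultures or a control, so the values describe these cells and no test between conditions was possible.

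The nuclear lamina is the protein mesh under the inner nuclear membrane. Chromatin that touches it is mostly gene-poor and weakly transcribed, and genes active in a cell type usually lie away from it. The 10 factors build the regulatory network of blood stem and progenitor cells: TAL1, LMO2 and GATA2 bind DNA in shared complexes, RUNX1 and the ETS proteins ERG, FLI1 and SPI1 occupy many of the same enhancers, and MYB and CEBPA drive progenitor growth and granulocyte formation. Several are altered by translocation in leukaemia, among them RUNX1, ETV6, TAL1 and LMO2. No transcript was measured here, so whether each gene was active in these cells is not known from the data.

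Each bin had a ratio of observed over expected reads, and a bin or gene counted as in contact with the lamina where its ratio was 1 or more. A gene that spans several bins was called from the mean ratio over them. Samples numbered n and n + 86 held the same cell, so their ratios were averaged, which gave 84 cells. The deeper column of a cell held between 7134 and 418937 reads (median 63700). At the median bin, 2.66 reads made a ratio of 1 in the median cell, and in 13 cells less than 1 read did, so that in shallow cells a missed contact cannot be told from an absent one. Exact Clopper-Pearson 95% intervals below cover counting error only.

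DamID reads come only from DNA fragments that end in GATC, the sequence Dam methylates and DpnI cuts. The promoters of the genes were therefore searched for GATC. Of the 10 genes, 7 had a promoter in the promoter set used (GRCh38.p14), with 12 start sites in all. That set held none for SPI1, LMO2 and FLI1. Windows of 250 bases upstream of the start were searched, and 2 of the 12 held a GATC, against 35.8% of 35116 windows in the whole set. Among the 12, 2 windows of ERG overlap each other. The letters searched, GATC, are the same on both strands. The sequences below are the MYB promoter, which lies beside DNA that often touched the lamina and has no GATC in this window, and the windows of TAL1 and ERG that have 1 each. They run 5′ to 3′ on the strand of the gene, with GATC in capitals.
MYB, chr6:135181058-135181307, plus strand, GRCh38.p14: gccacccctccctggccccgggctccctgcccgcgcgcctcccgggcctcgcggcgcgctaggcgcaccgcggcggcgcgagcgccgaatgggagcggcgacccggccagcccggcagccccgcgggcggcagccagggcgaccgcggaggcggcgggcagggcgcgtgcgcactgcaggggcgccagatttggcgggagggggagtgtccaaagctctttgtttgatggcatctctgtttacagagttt
TAL1, chr1:47232336-47232585, minus strand, GRCh38.p14: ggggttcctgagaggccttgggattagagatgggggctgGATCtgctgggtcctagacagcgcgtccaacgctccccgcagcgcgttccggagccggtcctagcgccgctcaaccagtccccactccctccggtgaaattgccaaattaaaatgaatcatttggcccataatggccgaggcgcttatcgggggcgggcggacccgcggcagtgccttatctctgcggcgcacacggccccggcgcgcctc
ERG, chr21:38584946-38585195, minus strand, GRCh38.p14: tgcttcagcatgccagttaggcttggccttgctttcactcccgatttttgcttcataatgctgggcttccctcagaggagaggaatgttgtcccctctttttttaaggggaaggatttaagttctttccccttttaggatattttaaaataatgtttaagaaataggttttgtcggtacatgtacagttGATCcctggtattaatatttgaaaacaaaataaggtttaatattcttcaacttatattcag
GC content was 75.6% in the MYB window, 64.8% in the TAL1 window and 36.4% in the ERG window. These windows are a small part of a 100 kb bin, and the contact value of a gene covers all of its bins. The expectation recovered from the table, in whole units per bin, was 324 to 444 in the gene bins and had a median of 316 over all covered bins, so each gene bin was above that median.

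All 10 genes were away from the lamina in nearly all cells. Each was in contact in 1 to 3 of 84 cells, so that all 10 were under 5%, where 36.7% of all covered bins were under 5%, and 37.1 to 37.3% of windows of 2 to 4 adjacent bins. By chromosome, the share of bins under 5% was 45.2% on chromosome 1, 31.5% on 3, 31.4% on 6, 36.1% on 11, 41.4% on 12, 81.5% on 19 and 40.2% on 21, so that the value of CEBPA on chromosome 19 was that of most bins there. The call depended on the cutoff: at a ratio of 0.5 only 2 of 10 genes were under 5%, where 18.8% of all bins were, which is close to the background. It also depended on how genes over several bins were called: when any bin sufficed, the 5 genes with 2 to 4 bins were all above 5% (5.95 to 8.33%), where under 5% lay 24.4% of windows of 2 bins, 15.0% of windows of 3 and 8.74% of windows of 4. None reached 20%, the level that 47.7% of bins reached. The mean contact frequency was 2.14% ± 0.939 (SD over 10 genes), against 9.58% ± 10.5 in their flanks, 25.3% ± 8.26 in the rest of their chromosomes and 27.8% over all covered bins. Of the 20 gene bins, 19 were under 5%. The exception was the second bin of LMO2 at 7.14%.

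**Figure D1:**
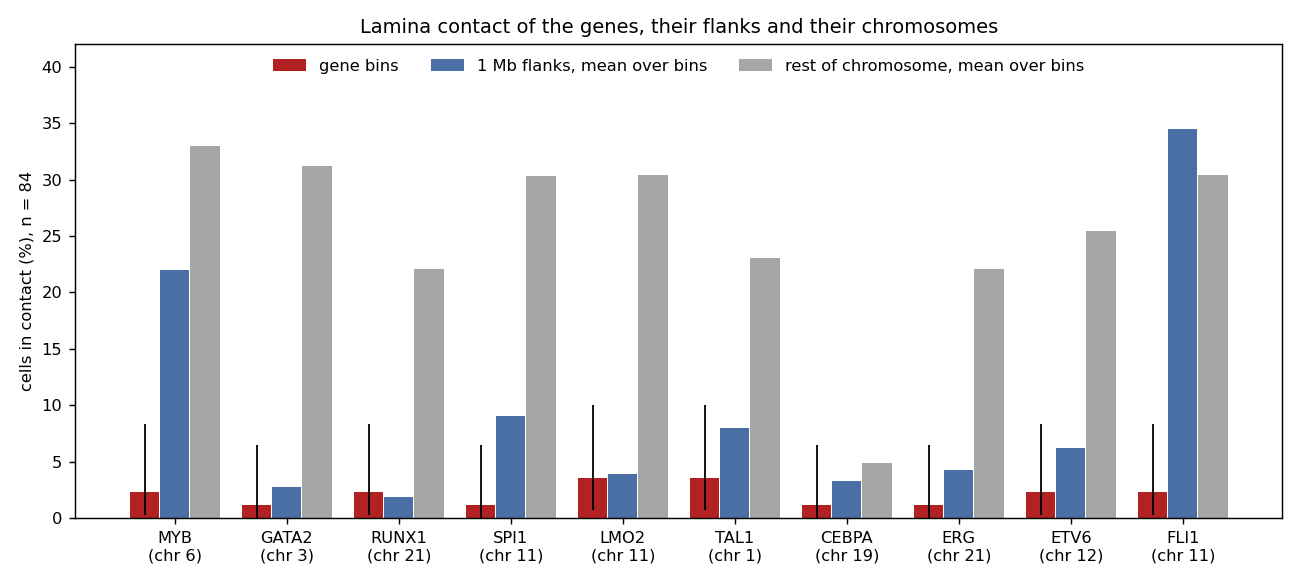
Percent of 84 cells in contact with the lamina for the bins of each gene (red, with exact 95% interval), the mean over bins of its 1 Mb flanks (blue) and the mean over bins of the rest of its chromosome (grey). Red bars lie between 1.19 and 3.57% for every gene, grey bars stand above the red ones throughout, and the blue bars of MYB (22.0%) and FLI1 (34.5%) stand out from those of the other genes.

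Without a cutoff the picture was of the same kind. The mean ratio of a gene over the 84 cells averaged 0.119 over the 10 genes, and ran from 0.0624 for SPI1 to 0.215 for TAL1. The mean over all covered bins was 0.924 and the median bin had 0.515. The share of covered bins with a lower mean ratio than the gene was 10.6% for SPI1, the lowest placed, and 37.9% for TAL1, the highest placed. The genes thus lay in the lower part of the range but not at its very end. A mean can rest largely on 1 shallow cell. In cell 54 the ratio was 6.40 at TAL1 and 4.91 at CEBPA, and the order of the genes without that cell was not computed.

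The partners TAL1, LMO2 and GATA2 were each in contact in at most 3 cells. TAL1, a basic helix-loop-helix factor needed to make blood cells, had ratios from 0 to 6.40 with a median of 0, and was in contact in 3 of 84 cells (3.57%, interval 0.743 to 10.1%). LMO2, the adaptor that bridges TAL1 and GATA factors, had ratios from 0 to 4.42 with a median of 0, and was also in contact in 3 cells. GATA2, a zinc finger factor of stem cells, had ratios from 0 to 1.28 with a median of 0, and was in contact in 1 cell (1.19%, interval 0.0301 to 6.46%). The intervals of the 10 genes all overlap, so the order of their frequencies, from 3 cells for TAL1 and LMO2, over 2 for MYB, RUNX1, ETV6 and FLI1, to 1 for GATA2, SPI1, CEBPA and ERG, is not separated by the data.

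The highest single-cell ratio of RUNX1, the DNA-binding subunit of core-binding factor, was 1.04, and its 4 bins were contacted in 1.19 to 2.38% of cells. For MYB, a factor of proliferating progenitors, the ratios ran from 0 to 1.63 and the median was 0. CEBPA, the leucine zipper factor of granulocyte formation, had a ratio of 4.91 in its highest cell and a median of 0. All 3 had most cells at or near 0 and only 1 or 2 cells above 1.

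The ETS family members had equally low values. SPI1, which encodes PU.1, had ratios from 0 to 1.59, and FLI1 had ratios from 0 to 2.15, each with a median of 0. ERG, close in sequence to FLI1, had ratios from 0 to 1.25, also with a median of 0. ETV6, an ETS repressor, was the 1 gene with a median above 0, at 0.0290, with ratios above 1 in cells 48 and 54 (1.38 in cell 54). ETV6 runs towards higher coordinates, and its 3 bins were contacted in 4.76, 2.38 and 1.19% of cells in that order, which are 4, 2 and 1 cells. The intervals of the 3 bins overlap, so this order is not separated by the data.

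The reads behind these values were few. Over the deeper columns of the 84 cells, CEBPA had 10 reads, where a ratio of 1 in every cell would have given 414. GATA2 and SPI1 had 25 reads each, against 392 and 415 at a ratio of 1. MYB had 43 reads against 380, TAL1 50 against 416 and FLI1 83 against 964. Only 8 of 84 cells had any read in the CEBPA bin in either column, and 44 of 84 had one in the 3 bins of ETV6.

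Contacts of these genes gathered in a few cells. Of the 840 combinations of gene and cell, 18 were contacts. In 75 of 84 cells (89.3%) none of the 10 genes was in contact, 5 cells had 1 gene, 2 cells had 2, cell 48 had 4 and cell 54 had 5. The mean number per cell was 0.214 ± 0.777 (SD, n = 84). Cell 48 had RUNX1, LMO2, ERG and ETV6 in contact, and cell 54 had LMO2, TAL1, CEBPA, ETV6 and FLI1. These 2 cells also had the largest shares of reads in bins rarely contacted (under 5% of cells), with 27.3% in cell 48 and 17.9% in cell 54, against a median of 2.71% over cells. The next highest cell, with 14.1%, had none of the 10 genes in contact. The part of these shares in the contacts was not tested.

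Without cells 48 and 54, and also cell 56, which had no contact of these genes, 9 contacts remained in 81 cells. They fell on 7 genes, none with more than 2 cells, and CEBPA, ERG and ETV6 had none. That follows from leaving out the cells that held their contacts, so no upper limit is drawn from it. The mean frequency was then 1.11%. In these 3 genes every contact thus came from cell 48 or 54. Apart from cell 48, whose calls rested on 40 to 58 reads for LMO2, RUNX1 and ETV6 and on 61 for ERG, every call rested on 0 to 5 reads in the deeper column.

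No gene was in contact in a deeply read cell other than cell 48. In the 34 other cells with at least 100000 reads, 4.34 to 17.4 reads made a ratio of 1 at the median bin, and none of the 340 combinations of gene and cell was a contact. For MYB, GATA2, SPI1, TAL1, CEBPA and FLI1, 0 of 34 cells allows a frequency of up to 8.82% each. RUNX1, LMO2, ERG and ETV6 were in contact in cell 48, so leaving it out fixed their 0 and gives no limit. With cell 48 kept, each of them was in contact in 1 of 35 such cells (2.86%). The highest ratio in these cells was 0.843 for GATA2 and 0.809 for MYB, and for CEBPA it was 0.185. MYB, RUNX1, SPI1, LMO2, TAL1, ERG, ETV6 and FLI1 were below the mean ratio of their own chromosome in all 34 cells, GATA2 in 33 and CEBPA in 32. A gene without a read is below any such mean by construction. Cells with a read ran from 4 of 34 for GATA2 and CEBPA, of 1 bin each, to 20 of 34 for ERG, of 4 bins. More bins give more room for a read, so these counts do not compare the genes. The same count for other bins was not made. The 14 other contacts all came from cells with under 100000 reads.

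The surroundings of the genes differed more than the genes. Of the 199 flank bins, 126 (63.3%) were under 5% and 29 (14.6%) were at 20% or more, against 36.7% and 47.7% of all covered bins. Of these 29, 25 lay beside MYB or FLI1. Gene minus flank was -7.44 ± 10.4 percentage points (SD over 10 genes), with 9 of 10 genes below their flanks, and -2.84 ± 2.61 points for the 8 genes other than MYB and FLI1. RUNX1 was the exception, at 0.476 points above its flanks, and LMO2 was 0.357 points below, where 1 cell of 84 is 1.19 points. How many of all covered bins lie below their own flanks was not counted, so the 9 of 10 has no background beside it. The genes were called on the mean ratio over their bins and flanks bin by bin. With the frequencies of the gene's single bins averaged instead, a comparison added after seeing the data, LMO2 was 1.43 points and RUNX1 0.179 points above the flanks, and 8 of 10 genes were below. Gene minus the rest of the chromosome was -23.1 ± 8.06 points, negative for all 10 genes, and smallest in size for CEBPA at -3.70 points, since chromosome 19 as a whole averaged 4.89%. That is a comparison with a mean, for which the share of all bins below it was not counted, and the ranks differed more. The share of bins of the own chromosome with a lower mean ratio was 12.4% for GATA2 and for SPI1. It was 34.9% for LMO2, 45.0% for CEBPA and 46.2% for TAL1, so by this mean CEBPA and TAL1 lay near the middle of their chromosomes. Cell 54 weighs heavily in these means. Its ratio was 4.91 at CEBPA on 2 reads, 6.40 at TAL1 on 4 and 4.42 at LMO2 on 4, in the deeper column. Ranks without that cell were not computed.

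**Figure D2:**
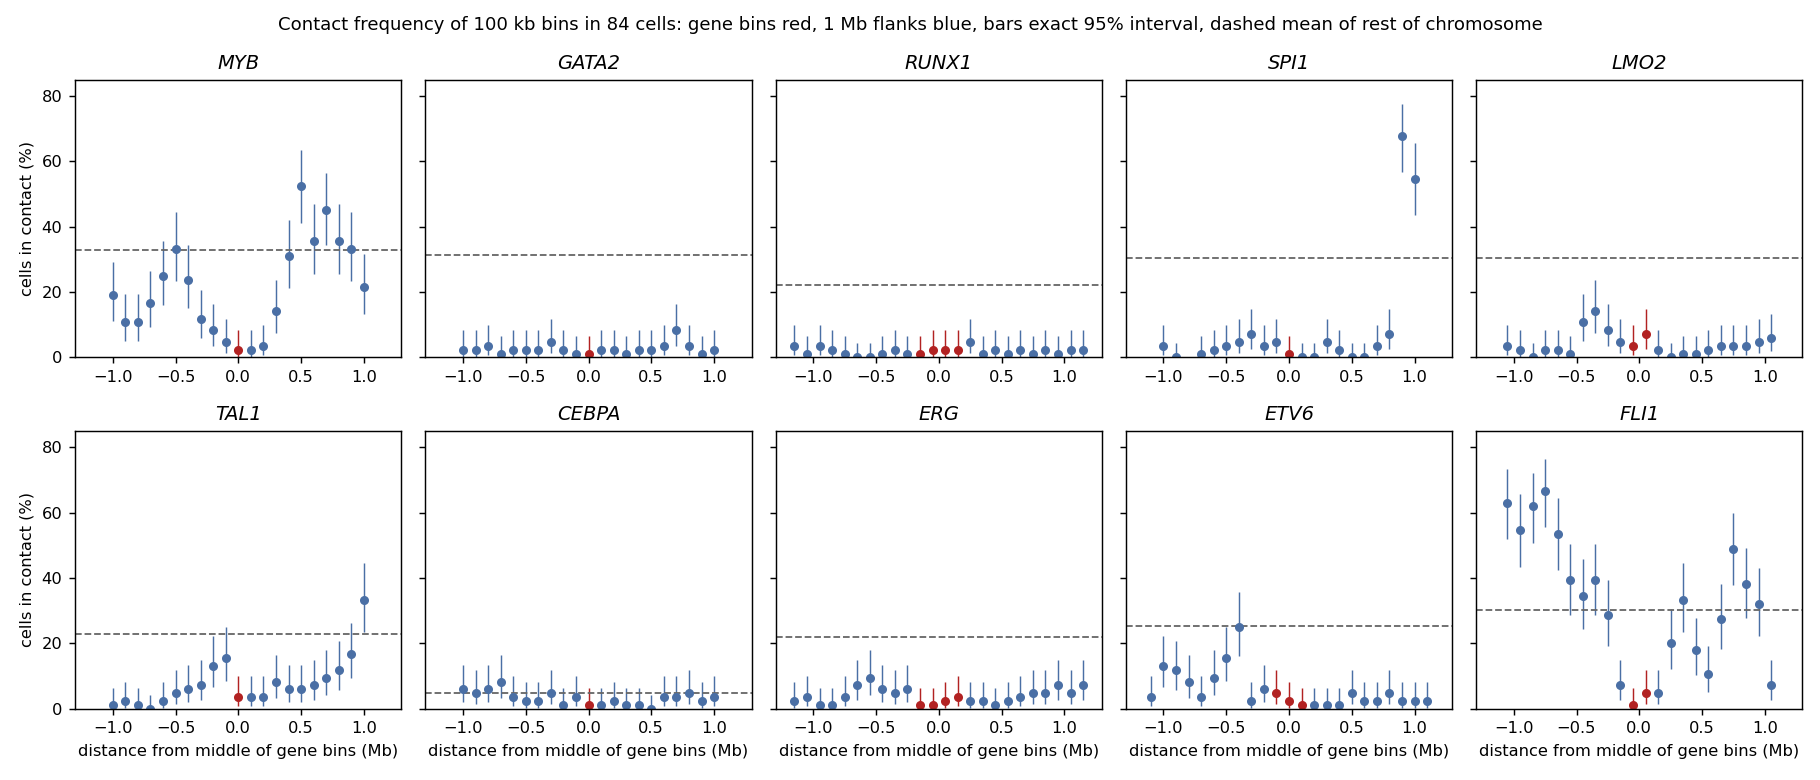
Percent of 84 cells in contact for each 100 kb bin of the 10 genes (red) and of their 1 Mb flanks (blue), by distance from the middle of the gene bins in Mb. Bars are exact 95% intervals and the dashed line is the mean of the rest of the chromosome. MYB and FLI1 sit in dips between contacted stretches, SPI1 has 2 contacted bins at the edge of its window, and GATA2, RUNX1, CEBPA and ERG have no bin above 9.52%.

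FLI1 lay between stretches that often touched the lamina. Its 2 bins, 11:128500001 to 128700000, were contacted in 1.19 and 4.76% of cells. On the lower-coordinate side, where ETS1 is the next coding gene in the RefSeq order, the 5 farthest bins were contacted in 53.6 to 66.7% of cells, with the peak at 11:127800001 to 127900000 (56 of 84 cells, interval 55.5 to 76.6%). The frequency fell off towards the gene, with 28.6% in the second bin and 7.14% in the first bin next to it. On the other side, where KCNJ1 follows, it was 4.76% in the first bin, 20.2% in the second and 33.3% in the third. It was lower again in the fourth (17.9%) and the fifth (10.7%), reached 48.8% in the seventh, 11:129300001 to 129400000, and was 7.14% in the tenth.

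MYB lay in a similar dip. Its bin, 6:135500001 to 135600000, was contacted in 2.38% of cells, and so was the next bin on the higher-coordinate side, where AHI1 follows. From there the frequency was 3.57, 14.3, 31.0 and 52.4% in the following 4 bins, the last of them 6:136000001 to 136100000 (44 of 84 cells, interval 41.2 to 63.4%). On the side of HBS1L the frequency was 4.76% in the first bin and peaked at 33.3% in the fifth. The interval of the MYB bin, 0.290 to 8.34%, overlaps neither that of the peak at 33.3% nor that of the peak at 52.4%. These peaks were picked as the highest bin on each side, and all intervals come from the same 84 cells, so this is no test.

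SPI1 had a sharp step within its window. Its bin, 11:47300001 to 47400000, and the 8 bins after it were each contacted in at most 7.14% of cells. The next bin, 11:48200001 to 48300000, was contacted in 67.9% (57 of 84 cells, interval 56.8 to 77.6%) and the one after it in 54.8%. TAL1 had a bin at 33.3% at the far edge of its higher-coordinate flank, 1:48600001 to 48700000, and 15.5% in the bin directly before the gene on the side of PDZK1IP1. ETV6 had 25.0% at 12:11500001 to 11600000 and at most 4.76% in any bin on its other side.

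The other 5 genes were surrounded by DNA that rarely touched the lamina. All 20 flank bins of RUNX1 were under 5%, as were 19 of 20 for GATA2, 17 of 20 for CEBPA, 16 of 20 for LMO2 and 14 of 20 for ERG. Over all bins of the chromosome this share was 40.2% on 21 (RUNX1 and ERG), 31.5% on 3 (GATA2) and 36.1% on 11 (LMO2). On chromosome 19 it was 81.5%, so the CEBPA flanks were near the level of their chromosome. The nearest bin contacted in at least 50% of cells, a level that 30.7% of covered bins reached, was 9.5 Mb away from GATA2 on one side and 18.1 Mb on the other. It was 4.0 Mb away from RUNX1 and 7.6 Mb from ERG, both towards lower coordinates, and chromosome 21 had none on the other side of either gene. Chromosome 19 had no such bin on either side of CEBPA. For LMO2 the distances were 2.6 and 2.8 Mb, for MYB 0.4 Mb on the nearer side, and for FLI1 0.5 Mb.

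FLI1 and ERG are the closest relatives in the set. FLI1 was in contact in 2 cells (2.38%) and ERG in 1 (1.19%), a difference that 84 cells cannot resolve, while their flanks averaged 34.5 and 4.29%. The 3 genes on chromosome 11 also differed, with flank means of 34.5% for FLI1, 9.02% for SPI1 and 3.93% for LMO2.

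Contacts close by were also counted within single cells. Over all 84 cells the ratio at FLI1 was lower than the mean of its lower-coordinate flank in 80 cells, equal in 1 and higher in 3. In 46 cells at least 5 of the 10 bins of the lower-coordinate flank of FLI1 were in contact, and FLI1 itself was in contact in none of them, which allows up to 6.52%. For the other flank there were 14 such cells, with FLI1 in contact in 1 (7.14%, interval 0.181 to 33.9%). These cells were chosen by their flank, so the flank's own level in them is no finding.

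MYB was lower than its higher-coordinate flank in 75 of 84 cells, equal in 2 and higher in 7. In all, 23 cells had at least 5 of 10 bins of this flank in contact, and MYB was in contact in none of them, which allows up to 13.0%. For the lower-coordinate flank there were 9 such cells, with MYB in contact in 1 (11.1%, interval 0.281 to 48.3%). The 2 contacts of MYB were in cells 55 and 58, which had 1 and 2 reads in its bin in the deeper column.

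Over the 20 pairs of a gene and 1 of its flanks, the number of cells in which the gene was lower ran from 31 to 80 of 84. It was 31 at the higher-coordinate flank of ETV6, where 33 cells were higher and 20 equal, 37 at the lower-coordinate flank of LMO2 (25 higher) and 37 at the higher-coordinate flank of ERG (24 higher). The 5 genes of 1 bin had no read in 54 to 76 of 84 cells, whereas the mean over a flank is 0 only where all its bins are, and how much of these counts comes from that was not tested.

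**Figure D3:**
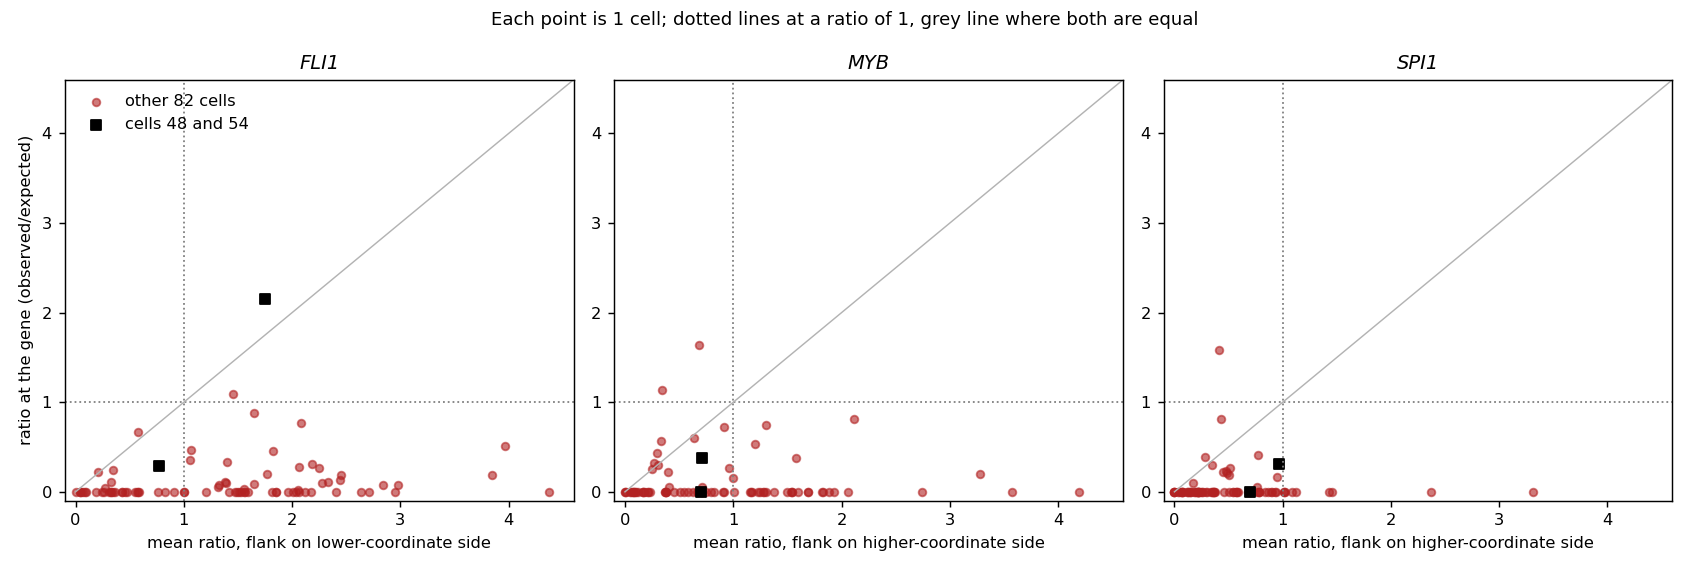
Ratio of observed over expected reads at the gene (vertical) against the mean ratio of 1 of its 1 Mb flanks (horizontal), 1 point per cell, for FLI1, MYB and SPI1 (the 3 genes with a flank bin contacted in at least 50% of cells), with cells 48 and 54 as black squares. Points lie below the grey line of equality in 80 of 84 cells for FLI1, 75 for MYB and 77 for SPI1, the highest counts among the gene and flank pairs together with 75 at the other flank of FLI1, and the dotted lines mark a ratio of 1.

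Contacts on both sides of a gene that itself was free were most frequent at FLI1 and MYB. At FLI1, 62 cells had a contacted bin in each flank, and 1 of these 62 had FLI1 in contact. At MYB there were 46 such cells, with MYB in contact in 2. At TAL1 there were 18 and at SPI1 15, with 0 and 1 contacts at the gene, and at RUNX1 only 2 such cells were found. FLI1 and MYB were each in contact in 2 of all 84 cells, so these counts do not show them freer in such cells. A flank counted where any of its bins was in contact, so the numbers of cells reflect how often the flanks were contacted. Other bins were not counted this way.

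The distance from a gene to the nearest contacted bin in the same cell gave a similar order of surroundings. The median was 0.2 Mb for FLI1, 0.3 Mb for MYB and 0.8 Mb for SPI1 and TAL1. It was 1.3 Mb for ETV6, 1.5 Mb for LMO2, 1.6 Mb for ERG, 1.9 Mb for CEBPA, 2.9 Mb for RUNX1 and 3.0 Mb for GATA2. In 64 of 84 cells the nearest contact was under 0.5 Mb from MYB and in 64 under 0.5 Mb from FLI1, against 9 of 83 cells for RUNX1 and 12 of 84 for GATA2. Quartiles were wide for CEBPA (0.65 to 9.1 Mb) and ERG (0.5 to 7.2 Mb) and narrow for SPI1 (0.6 to 0.8 Mb), where the contacted bins at the far end of the flank set the distance.

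**Figure D4:**
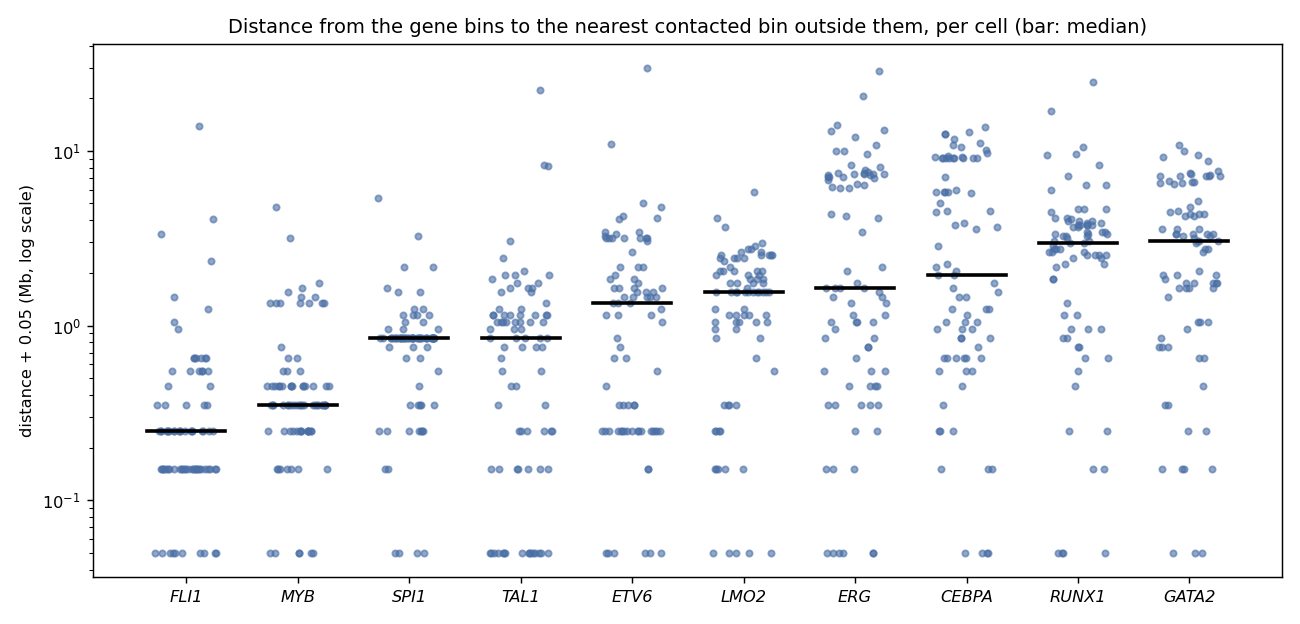
Distance from the gene bins to the nearest contacted bin outside them on the same chromosome, 1 point per cell, with 0.05 Mb added for the log axis, and bars at the medians. Medians run from 0.2 Mb at FLI1 and 0.3 Mb at MYB to 2.9 Mb at RUNX1 and 3.0 Mb at GATA2 before that addition, and the points of ERG (quartiles 0.5 to 7.2 Mb) and CEBPA (0.65 to 9.1 Mb) are widely spread.

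Over all 84 cells the ratio at a gene moved weakly with that of its flanks. In cells with at least 100000 reads, cell 48 among them, the mean correlation was higher, at 0.502 ± 0.243 (SD over 10 genes). The correlation of log2(ratio + 0.1) over 84 cells averaged 0.347 ± 0.135 (SD over 10 genes), from 0.125 for MYB to 0.570 for LMO2, and 0.287 without cells 48, 54 and 56. Between genes the highest was 0.508 for TAL1 with CEBPA, which are on different chromosomes, and 0.246 for the same pair without those cells. These points share each cell's depth and spread of reads, and CEBPA had no read in 76 of 84 cells, so the correlations are given as a description only.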

How the data were processed

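The submitters' processing notes name cutadapt, Bowtie2 2.1.0 and the build hg19. The deposited table holds the authors' ratio of observed over expected reads in 100 kb bins. The treatment of duplicates is not given in the sources used here, nor is the basis of the expectation. Its 168 columns match 168 of the 172 labelled samples. Not analysed here are samples 81, 82, 167 and 168. Of 30376 bins, 3792 had no value and 170 were 0 in every column, which left 26414.

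Ratios within a bin are whole multiples of a step, so reads were worked back from them: within a tolerance of 0.02, whole numbers resulted for 100% of 1965662 nonzero ratios. The recovery was tested on simulated data. Each of the 168 columns correlated best with the column 86 numbers away. In all 84 such pairs the reads differed by less than sampling noise (chi-square per bin under 1, using bins where the pair had 10 reads or more), against 1.41 or more for the other 13944 combinations. Ratios of a pair were averaged and counted as 1 cell.

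Gene intervals, rounded to 10 kb, were read as half-open, so an interval that starts on a bin edge takes the bin after it. Flanks are the covered bins within 1 Mb of the gene bins. Named were all 10 genes, the nearest coding gene on each side by RefSeq gene order, and the most correlated member. No RefSeq position was set against the bins, so a list of other blood factors was not placed. The genes and alternatives were chosen with earlier results of these data known. Cells are not replicates, so no p-value was computed. Intervals are exact Clopper-Pearson at 95%, and 0 cells allows 3 of n. PCR copies cannot be told from separate molecules, so intervals cover counting error only. Alternatives varied the cutoff, columns, scaling, gene bins, flanks and cells. Python 3.11.15, numpy 2.4.6, pandas 2.3.3, scipy 1.17.1 and matplotlib 3.10.9 were used.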

Additional observations from a re-analysis of the deposited data

How the results depend on the processing

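None of the 10 genes reached 20% of cells under any of the 15 alternatives in cells, columns, cutoff, scaling and gene bins. All 10 genes were below the mean of their chromosomes under each of these (mean difference -27.4 to -14.4 points, the latter at a cutoff of 2). How many of all bins lie below such a mean, or below their flanks, was not counted. The mean over genes was below that of the flanks (-9.78 to -3.77 points), but the number of genes below their flanks ran from 7, at a cutoff of 0.5 or when any bin sufficed, to 10. The mean contact frequency of 2.14% was 6.90% at a cutoff of 0.5, 0.952% at 1.5, 0.476% at 2, 4.29% when any bin of a gene sufficed, 1.14% in cells with at least 100000 reads, 1.03% in cells 1 to 29 and 1.11% without cells 48, 54 and 56. The number of genes under 5% was 2 at a cutoff of 0.5, where 18.8% of all bins were under 5%, and 5 when any bin sufficed, which by construction leaves genes of 1 bin as they were. The correlation of gene and flank, for which alternatives were added after seeing the data, was 0.496 with 1 more bin on each side, which share bins with the flank, and 0.502 in cells with at least 100000 reads. By construction a lower cutoff and more bins give more contacts, and for the subsets of cells the cause was not tested beyond the counts given for cells 48 and 54. Leaving out each gene in turn gave a mean frequency of 1.98 to 2.25% and a gene minus flank of -8.32 to -4.70 points, the latter without FLI1. No paired analysis was possible because all cells belong to 1 group, so that no samples of different groups could be paired (gene and flank were compared within cells). Depth limits single calls: outside cell 48, each rested on at most 5 reads in the deeper column.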
